A study of Mus musculus with 24 samples.

Results

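The 10 genes described here encode heat shock proteins and their close partners: Hspa1a, Hspa1b, Hspa8, Hsph1, Dnajb1, Hsp90aa1, Hsp90ab1, Hspb1, Hspd1 and Bag3. They were chosen by gene symbol as chaperones linked to the transcription factor HSF1 and read from the tables by that symbol. The choice was made with earlier results of these data known. Each of the 10 was listed in the tables of all 4 cell lines, among 28774 genes for MC38, 27398 for LLC1, 28237 for AKR and 26146 for Hepa1-6. All but Hspd1 act mainly in the cytosol and nucleus; Hspd1 encodes HSP60, the chaperonin of the mitochondrial matrix, so the set is not cytosolic throughout.

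Mouse tumour cells carrying a guide RNA against B2m (sgB2m) were compared with cells of the same line carrying a non-targeting guide (sgNT), by bulk RNA-seq of 3 libraries per line and guide, 24 in all. B2m encodes the light chain that MHC class I needs to reach the cell surface, and the study asked how losing it affects tumours. The 8 groups were MC38 sgB2m and MC38 sgNT (colon adenocarcinoma), LLC1 sgB2m and LLC1 sgNT (Lewis lung carcinoma), AKR sgB2m and AKR sgNT (esophageal carcinoma), and Hepa1-6 sgB2m and Hepa1-6 sgNT (hepatocellular carcinoma). All groups grew in the same kind of serum-containing DMEM, and no heat or other stress is named for any of them. The labels do not say whether edited cells were clones or pools, or whether the 3 libraries of a group came from separate cultures. A clone and the edit therefore cannot be told apart, and p-values measure only the spread between these libraries.

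Values are normalised counts, that is, reads per gene divided by a size factor set within each line, with the mean ± SD of 3 libraries. A gene was tested in a line if its log2 value reached 3.5 in at least 3 of the 6 libraries. Log2 fold changes are sgB2m minus sgNT ± standard error with 3 libraries per group, from limma's moderated two-sided test, and "rose" or "fell" means a Benjamini-Hochberg adjusted p under 0.05 over all genes tested in that line. The libraries held 25 to 49.7 M counted reads. B2m itself was lower in sgB2m in every line, without overlap: Hepa1-6 had the smallest fall (2.56-fold) and MC38 the largest (3.43-fold), with AKR at 2.98-fold and LLC1 at 3.28-fold. B2m shares 5398 bases with Patl2, a gene on the opposite strand, so a count without strand could mix some of their reads. Of 5 markers per tissue, Hepa1-6 had 4 hepatocyte markers at a mean log2 value of 6 or more. LLC1 had 2 alveolar markers (Abca3 and Napsa) and 1 intestinal marker at that level. MC38, AKR and Hepa1-6 each had 1 alveolar marker there, which was Abca3 as well, so Abca3 did not set LLC1 apart. AKR had 2 squamous but 3 intestinal markers at that level, and MC38 had 1 intestinal but 2 squamous. Hepa1-6 also had 4 intestinal markers there. Of 5 leukocyte markers, 1 reached it in Hepa1-6 and 0 in the other lines.

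Heat shock proteins bind unfolded protein. HSP70 proteins take up and release clients in a cycle driven by ATP, started by J-domain partners such as DNAJB1 and reset by exchange factors such as HSPH1 and BAG3. HSP90 acts on clients handed on by HSP70, small heat shock proteins such as HSPB1 hold clients without ATP, and HSP60 folds proteins in a chamber inside mitochondria. HSF1, held inactive by chaperones in unstressed cells, forms trimers under protein stress and binds heat shock elements, inverted repeats of the unit GAA, at many of these genes. Tumour cells often run this system at a high level without heat.

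Promoters of these genes were read because HSF1 is known to act there and the members share it as a regulator. RefSeq promoters on build GRCm38.p6, 250 bases before and 50 bases after each annotated start, were found for 7 of the 10 members; Hspa8, Hsp90aa1 and Hsp90ab1 are named only. They were searched for GAANNTTC and TTCNNGAA, each its own reverse complement, so both strands are covered, and neighbouring matches may overlap. Of 32851 promoters of that length, 15.1% held at least 1 match, 1.96% at least 2 and 0.256% at least 3. Capitals mark the matched bases, 5′ to 3′ in the direction of transcription. The 5 shown cover the stress-inducible HSP70 pair, an HSP70 exchange factor, the small heat shock protein and the mitochondrial chaperonin.
Hspa1a (chr17:34972107-34972406, minus strand): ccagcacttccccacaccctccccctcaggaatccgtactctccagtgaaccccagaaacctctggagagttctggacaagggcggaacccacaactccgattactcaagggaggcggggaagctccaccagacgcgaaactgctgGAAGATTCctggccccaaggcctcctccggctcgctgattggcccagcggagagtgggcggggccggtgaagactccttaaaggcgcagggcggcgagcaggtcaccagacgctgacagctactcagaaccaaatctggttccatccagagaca
Hspa1b (chr17:34959189-34959488, minus strand): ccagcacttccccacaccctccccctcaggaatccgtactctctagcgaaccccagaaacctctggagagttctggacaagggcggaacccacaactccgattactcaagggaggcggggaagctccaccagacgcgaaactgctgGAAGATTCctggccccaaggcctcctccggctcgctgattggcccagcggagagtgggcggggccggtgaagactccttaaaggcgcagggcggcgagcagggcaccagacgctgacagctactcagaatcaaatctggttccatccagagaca
Hsph1 (chr5:149636287-149636586, minus strand): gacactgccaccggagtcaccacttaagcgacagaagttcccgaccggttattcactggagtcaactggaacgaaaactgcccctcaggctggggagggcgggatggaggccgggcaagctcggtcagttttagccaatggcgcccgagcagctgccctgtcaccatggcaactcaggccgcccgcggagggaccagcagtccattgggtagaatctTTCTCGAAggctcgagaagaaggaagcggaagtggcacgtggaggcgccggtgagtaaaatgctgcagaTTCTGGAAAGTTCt
Hspb1 (chr5:135887669-135887968, plus strand): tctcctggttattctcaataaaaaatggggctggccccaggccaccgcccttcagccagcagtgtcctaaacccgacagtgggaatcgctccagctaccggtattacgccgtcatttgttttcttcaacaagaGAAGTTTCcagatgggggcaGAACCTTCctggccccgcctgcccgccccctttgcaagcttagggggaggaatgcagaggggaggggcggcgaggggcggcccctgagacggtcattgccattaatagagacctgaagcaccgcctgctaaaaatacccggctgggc
Hspd1 (chr1:55087883-55088182, minus strand): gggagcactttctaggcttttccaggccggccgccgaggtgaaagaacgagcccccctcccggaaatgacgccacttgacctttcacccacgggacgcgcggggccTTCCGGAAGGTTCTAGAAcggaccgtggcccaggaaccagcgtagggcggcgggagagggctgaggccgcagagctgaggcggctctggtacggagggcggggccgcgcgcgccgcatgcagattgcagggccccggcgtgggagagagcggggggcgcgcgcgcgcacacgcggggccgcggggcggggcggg
Of the 7 members with a promoter, 6 held a match in at least 1 annotated promoter, and Dnajb1 held none in either of its own. Hspa1a and Hspa1b each had 1 match, beginning 104 bases before the start, in promoters that differed at 4 of 300 bases. Hspb1 had 2 matches and Bag3 had 1, which began 43 bases after the start. Hsph1 had 3, of which the pair after the start overlapped. The Hspd1 promoter shown had 3 overlapping matches, and its other annotated promoter had none. Hspe1, which encodes the co-chaperonin HSP10 and lies head to head with Hspd1, holds the same matches in its own promoter, at chr1:55088059-55088076. A match describes letters in a window, not a bound site.

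**Figure D1:**
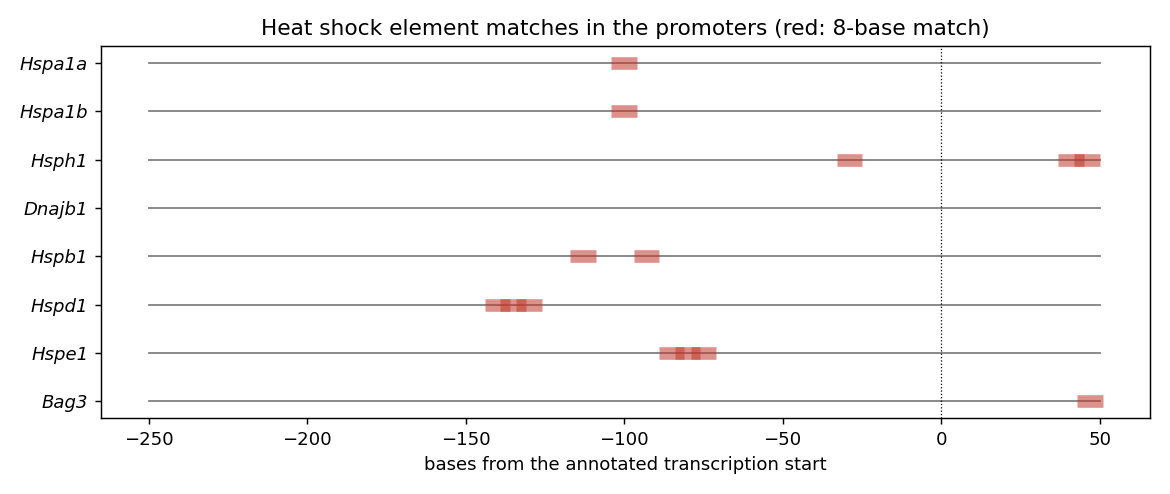
Heat shock element matches in promoters, plotted by distance in bases from the annotated transcription start, for the genes with a RefSeq promoter; red marks each 8-base match. Hsph1, Hspd1 and Hspe1 hold 3 matches each, Hspb1 holds 2, and Hspa1a, Hspa1b and Bag3 hold 1.

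In Hepa1-6, all 7 tested members fell, with log2 fold changes of -0.57 to -0.17 and a median of -0.31. Across all genes tested in Hepa1-6, 19.2% fell and 18.6% rose, with a median of -0.0093. No tested member rose there by limma, at an unadjusted p under 0.05 or by limma's voom on the recovered reads. The 3 members not tested in Hepa1-6, Hspa1a, Hspa1b and Hspb1, were close to unread. With quantile normalisation 6 of the 7 fell, Hsp90ab1 being set to 0 by its fixed rank. No member called in any line reversed its direction under any alternative tried.

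In AKR the balance lay the other way. Of 10 tested members, 5 rose (Hspa1b, Hspa8, Hsph1, Hsp90aa1 and Hspb1), 1 fell (Hspd1) and 4 did not pass, with a median log2 fold change of 0.30 against 0.0065 over all genes. The background in AKR was 21% of tested genes higher and 21.9% lower. In MC38, 4 of 9 tested members fell (Hspa8, Hsph1, Dnajb1 and Hsp90ab1), 1 rose (Hspd1) and 4 did not pass, beside 15.8% of all tested genes lower and 15.9% higher. The MC38 median was -0.15 against -0.003 over all genes. That MC38 count moved to between 2 and 7 members when single libraries were left out. It was 3 without sgB2m replicate 2, 2 without sgB2m replicate 3 and 3 without sgNT replicate 2. The number of all genes called in MC38 moved too, from 5251 to between 3651 and 6082 over 14 alternatives. In LLC1, 2 of 8 rose (Hspa8 and Bag3), 3 fell (Hsph1, Hsp90ab1 and Hspd1) and 3 did not pass, beside 20.7% higher and 21.8% lower over all genes. The LLC1 median was -0.027 against 0.0092.

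Since the members are mostly abundant, genes that reached a log2 value of 6 in 3 or more libraries of a line make a nearer background. Of those, 22.7% rose and 24.3% fell in Hepa1-6, 25.8% and 27.2% in AKR, 19.6% and 19.8% in MC38, and 25.6% and 26.7% in LLC1.

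The members' share of all counted reads was 0.609% ± 0.00422 in sgB2m and 0.709% ± 0.00241 in sgNT for Hepa1-6, and 0.775% ± 0.0116 in sgB2m and 0.851% ± 0.0255 in sgNT for MC38. LLC1 had 0.805% ± 0.00459 in sgB2m and 0.838% ± 0.00464 in sgNT, and AKR had 0.77% ± 0.026 in sgB2m and 0.672% ± 0.00334 in sgNT. Such shares rest on total reads. Scaled by total reads, the median log2 fold change over all genes was 0.0563 in AKR, 0.0404 in LLC1, 0.0103 in Hepa1-6 and -0.0269 in MC38. The share was lower in sgB2m in Hepa1-6, MC38 and LLC1, and higher in AKR, and most of it comes from Hsp90ab1, Hspa8, Hsp90aa1 and Hspd1. In LLC1 these did not move together. The mitochondrial Hspd1 had 723 reads per M in sgB2m and 1051 in sgNT, and Hsp90ab1 had 4473 and 4721. Hspa8 was higher in sgB2m, with 1579 and 1336, and Hsp90aa1 had 1129 and 1121. The lower LLC1 share is thus no general fall of the cytosolic members.

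**Figure D2:**
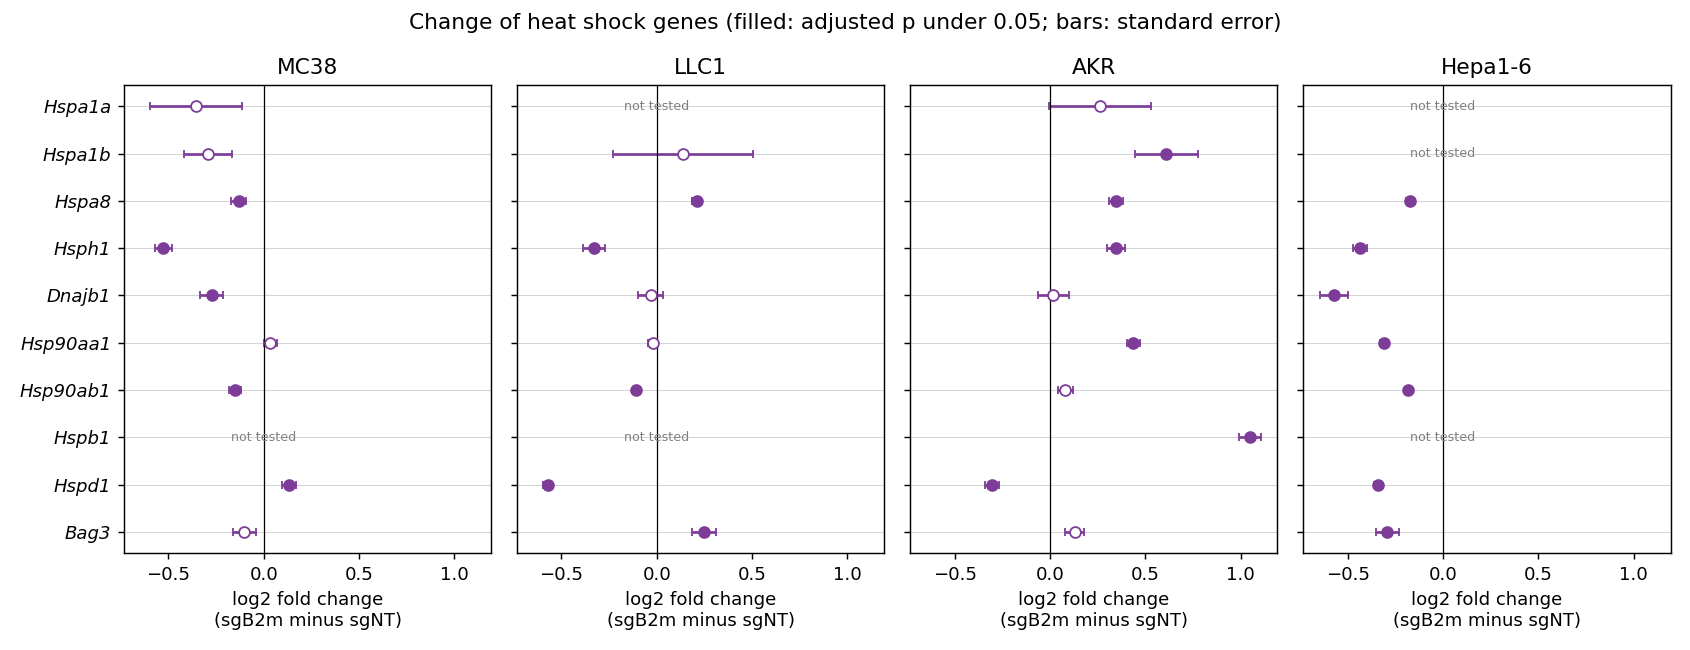
Log2 fold change of each heat shock gene, sgB2m minus sgNT, in each line; bars are standard errors (3 libraries per group) and filled points have a limma adjusted p under 0.05. Filled points lie left of 0 for all 7 tested members in Hepa1-6, and right of 0 for 5 of 10 in AKR.

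Hspa1a (chr17:34969190-34972156, minus strand; gene positions are mm10) and Hspa1b (chr17:34956436-34959238, minus strand) encode the stress-inducible HSP70s and are neighbours on that chromosome. Their coding sequences were 99.6% identical, and 47.1% of the 100-base windows of Hspa1a were found unchanged in Hspa1b, so reads can be split or lost between them and each gene's own count is uncertain. Hspa1a also overlaps a gene on the opposite strand, Gm20481, over 2225 bases, and the strand setting of the counter is not given in the sources used here. For these reasons the sum of both is given beside each. In MC38, Hspa1b had 454, 497 and 582 normalised counts in the sgB2m libraries, against 558, 596 and 724 in the sgNT libraries. The groups overlapped, and the change did not pass (log2 fold change -0.29 ± 0.13, adjusted p = 0.11). Hspa1a likewise overlapped and did not pass, with 116 ± 14.6 normalised counts in sgB2m and 153 ± 48.2 in sgNT (log2 fold change -0.35 ± 0.24, adjusted p = 0.298). Their sum had 627 ± 78.4 normalised counts in sgB2m and 779 ± 134 in sgNT (log2 fold change -0.31 ± 0.13, adjusted p = 0.11), and that call was reached without sgNT replicate 1 (log2 fold change -0.42, adjusted p = 0.0248; 0.0248 to 0.334 over 14 alternatives). Without that library Hspa1a (log2 fold change -0.60, adjusted p = 0.0477; 0.0477 to 0.729 over 14 alternatives) and Hspa1b (-0.37 and 0.0468; 0.0435 to 0.325 over 14 alternatives) passed as well. Without sgNT replicate 3 the changes were smaller, at -0.18 for the sum, -0.13 for Hspa1a and -0.18 for Hspa1b, and none passed.

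In AKR, Hspa1b had 216, 251 and 196 normalised counts in the sgB2m libraries, against 134, 123 and 179 in the sgNT libraries. The groups did not overlap, and Hspa1b rose by 1.53-fold (log2 fold change 0.61 ± 0.16, adjusted p = 0.0111). The summed pair rose as well, with 269 ± 29.5 normalised counts in sgB2m and 185 ± 35.3 in sgNT (log2 fold change 0.55 ± 0.15, adjusted p = 0.0117), while Hspa1a alone, at 48.1 ± 11.8 normalised counts in sgB2m and 39.3 ± 5.64 in sgNT, did not pass (log2 fold change 0.26 ± 0.27, adjusted p = 0.459). In LLC1 and Hepa1-6 the pair was hardly read. LLC1 Hspa1b had 22.4 ± 5.98 normalised counts in sgB2m and 20.1 ± 4.19 in sgNT (adjusted p = 0.796), and Hspa1a had 12 reads over the 3 sgB2m libraries and 15 over the 3 sgNT libraries. Hepa1-6 had 3 reads over the 3 sgB2m libraries and 7 over the 3 sgNT libraries for Hspa1b and 2 reads over the 3 sgB2m libraries and 0 over the 3 sgNT libraries for Hspa1a. A count of 0 allows up to 3 reads per library, here 0.0847 to 0.115 reads per M in each sgNT library. Such limits cover counting error only.

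Hspa8 (chr9:40800984-40810087, plus strand) encodes the constitutive HSP70 (HSC70) and was among the most abundant members. It moved in every line, and in both directions. It rose in AKR, with 61013, 57197 and 57406 normalised counts in the sgB2m libraries, against 45651, 46590 and 45647 in the sgNT libraries (log2 fold change 0.35 ± 0.036, adjusted p = 2.67e-05), and it rose in LLC1, with 42693, 43474 and 41687 normalised counts in the sgB2m libraries, against 36679, 37531 and 36354 in the sgNT libraries (log2 fold change 0.21 ± 0.023, adjusted p = 4.66e-06). Hepa1-6 went the other way: Hspa8 had 37029.5, 37079.8 and 36903 normalised counts in the sgB2m libraries, against 41656, 41015 and 42652 in the sgNT libraries (log2 fold change -0.17 ± 0.019, adjusted p = 2.33e-06), a change of -0.058 with quantile normalisation. In none of these lines did the groups overlap. In MC38 it fell by a smaller step, with 73886 ± 953 normalised counts in sgB2m and 80966 ± 3764 in sgNT (log2 fold change -0.13 ± 0.039, adjusted p = 0.0272). That call was lost without sgB2m replicate 1 (adjusted p = 0.119), 2 (0.0704) or 3 (0.101), or without sgNT replicate 2 (0.0605), and its adjusted p ran from 0.00153 to 0.155 over 14 alternatives. The gene spans 3 snoRNA genes on its own strand, Snord14c, Snord14d and Snord14e.

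**Figure D3:**
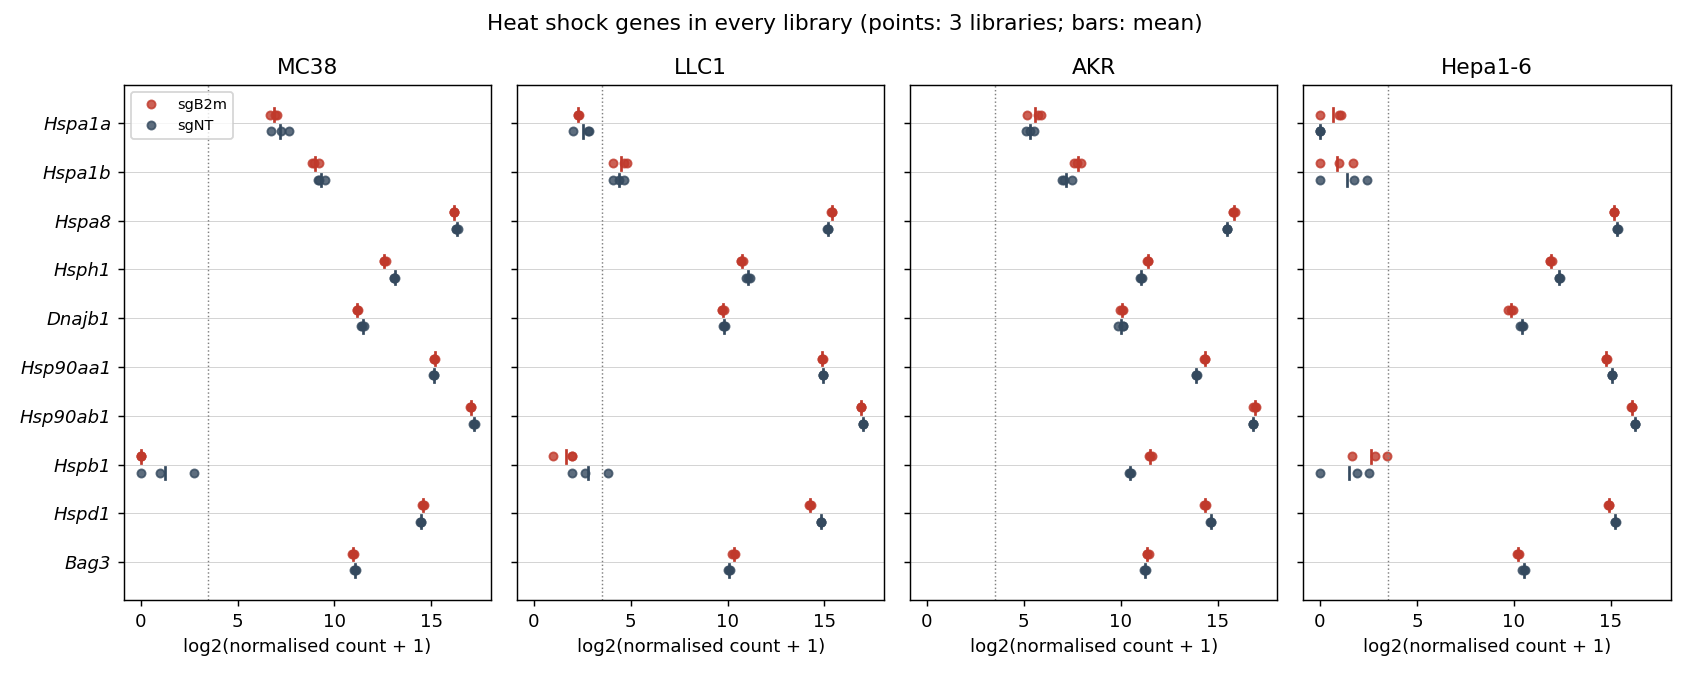
Log2(normalised count + 1) of each heat shock gene in every library of each line, sgB2m above sgNT for each gene; points are the 3 libraries, bars the mean, and the dotted line the log2 value of 3.5 used in the filter. In AKR all 6 Hspb1 libraries lie right of that line, and in the other lines LLC1 sgNT replicate 1 alone does; Hsp90ab1 lies farthest right in every line.

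Hsph1 (chr5:149614287-149636376, minus strand) encodes HSP110, an exchange factor for HSP70 that also holds unfolded protein. It changed in all 4 lines, lower in 3 and higher in AKR. In MC38, Hsph1 had 5936, 5967 and 6441 normalised counts in the sgB2m libraries, against 8639, 9012 and 8749.7 in the sgNT libraries, a 1.44-fold fall (log2 fold change -0.53 ± 0.046, adjusted p = 2.74e-05). Hepa1-6 had 3814, 3812 and 3988 normalised counts in the sgB2m libraries, against 5251, 5179.8 and 5283 in the sgNT libraries (log2 fold change -0.44 ± 0.035, adjusted p = 1.07e-07). LLC1 had a smaller fall, at 1704 ± 83 normalised counts in sgB2m and 2143 ± 160.2 in sgNT (log2 fold change -0.33 ± 0.059, adjusted p = 0.000396). Each sgB2m library was below each sgNT library in these 3 lines. In AKR the order was reversed, with 2720.3, 2669.8 and 2705 normalised counts in the sgB2m libraries, against 2217, 2056 and 2101 in the sgNT libraries (log2 fold change 0.35 ± 0.048, adjusted p = 0.000192).

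Dnajb1 (chr8:83608193-83612653, plus strand) encodes HSP40, the J-domain protein that delivers clients to HSP70. It fell in Hepa1-6 and MC38. Hepa1-6 had 989, 829.9 and 927 normalised counts in the sgB2m libraries, against 1363, 1418 and 1295 in the sgNT libraries, 1.49-fold lower in sgB2m with no overlap (log2 fold change -0.57 ± 0.073, adjusted p = 1.4e-05). MC38 had 2364, 2307 and 2294 normalised counts in the sgB2m libraries, against 2644, 2784 and 2997 in the sgNT libraries, again without overlap (log2 fold change -0.27 ± 0.059, adjusted p = 0.00615). In AKR and LLC1 the groups did not part: AKR had 1069 ± 58.3 normalised counts in sgB2m and 1058 ± 109.8 in sgNT (log2 fold change 0.019 ± 0.082, adjusted p = 0.874), and LLC1 had 868 ± 40.3 normalised counts in sgB2m and 887 ± 32 in sgNT (log2 fold change -0.032 ± 0.065, adjusted p = 0.726).

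Bag3 (chr7:128523616-128546981, plus strand) encodes a partner that joins HSP70 to autophagy of aggregated protein. It rose in LLC1 and fell in Hepa1-6. LLC1 had 1187, 1322 and 1297 normalised counts in the sgB2m libraries, against 1024, 1121 and 1061 in the sgNT libraries (log2 fold change 0.25 ± 0.062, adjusted p = 0.00532). Hepa1-6 had 1189.7, 1141 and 1248 normalised counts in the sgB2m libraries, against 1522, 1386 and 1473 in the sgNT libraries (log2 fold change -0.29 ± 0.061, adjusted p = 0.00144). Neither line's groups overlapped. In AKR the sgB2m libraries were above the sgNT libraries, at 2669 ± 91.1 normalised counts in sgB2m and 2439 ± 99.8 in sgNT, but the change did not pass (log2 fold change 0.13 ± 0.051, adjusted p = 0.0591), although it did with a stricter filter (0.0475; 0.0146 to 0.191 over 14 alternatives). Bag3 shares 612 bases with 2610306O10Rik on the same strand, so some of its reads are uncertain. MC38 had 1991 ± 85.6 normalised counts in sgB2m and 2135 ± 84.3 in sgNT (log2 fold change -0.10 ± 0.06, adjusted p = 0.23).

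The HSP90 pair encodes the stress-inducible HSP90alpha (Hsp90aa1, chr12:110690605-110702728, minus strand) and the constitutive HSP90beta (Hsp90ab1, chr17:45567775-45573271, minus strand). In AKR, Hsp90aa1 had 20989.7, 20430.3 and 21060.1 normalised counts in the sgB2m libraries, against 15280.2, 15178 and 15710.1 in the sgNT libraries, a 1.35-fold rise without overlap (log2 fold change 0.44 ± 0.034, adjusted p = 3.92e-06). In Hepa1-6 it fell, with 27284, 27498 and 28475 normalised counts in the sgB2m libraries, against 34350.3, 34145 and 34791 in the sgNT libraries (log2 fold change -0.31 ± 0.021, adjusted p = 1.13e-08). In MC38 and LLC1 it did not pass, at log2 fold change 0.034 ± 0.034, adjusted p = 0.491 and log2 fold change -0.022 ± 0.025, adjusted p = 0.514, and its sign changed with the scaling (-0.043 with quantile normalisation in MC38, 0.0095 with total reads in LLC1). Hsp90ab1, the most abundant member, fell in Hepa1-6 (69484 ± 864 normalised counts in sgB2m and 78773 ± 213 in sgNT; log2 fold change -0.18 ± 0.015, adjusted p = 1.41e-07). The falls of Hsp90ab1 were small, 1.13-fold in Hepa1-6, 1.11-fold in MC38 and 1.08-fold in LLC1. It had 134499 ± 1632 normalised counts in sgB2m and 149397 ± 4109.7 in sgNT for MC38 (log2 fold change -0.15 ± 0.033, adjusted p = 0.00611), and 120731 ± 1316 normalised counts in sgB2m and 130236 ± 735 in sgNT for LLC1 (log2 fold change -0.11 ± 0.017, adjusted p = 0.000131). In AKR its sgB2m libraries were above its sgNT libraries, at 123845 ± 5753 normalised counts in sgB2m and 117068 ± 1528 in sgNT, but the change did not pass (log2 fold change 0.08 ± 0.039, adjusted p = 0.125). It passed with scaling by total reads (log2 fold change 0.13, adjusted p = 0.0138) and without sgB2m replicate 2 (0.11 and 0.036; 0.0138 to 1 over 14 alternatives). Total-read scaling also raised the median log2 fold change over all AKR genes, from 0.0065 to 0.0563. The MC38 call for Hsp90ab1 was lost without sgB2m replicate 3 (adjusted p = 0.0505; 8.35e-05 to 1 over 14 alternatives). With no intensity trend in limma the Hsp90ab1 call was lost in LLC1 (adjusted p = 0.0703) and MC38 (0.0859). Quantile normalisation lost it in both as well, and 12 of 14 alternatives kept it in LLC1.

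Since both paralogs were measured in the same libraries, their ratio needs no size factor. The log2 ratio of Hsp90aa1 to Hsp90ab1 averaged -2.57 ± 0.051 in AKR sgB2m and -2.93 ± 0.026 in AKR sgNT. It was higher in sgB2m by 0.36 in AKR, 0.19 in MC38 and 0.087 in LLC1, and lower by 0.13 in Hepa1-6. The groups did not overlap in any line, and the exact two-sided permutation test gave p = 0.1 in each, the smallest 3 libraries against 3 can give (0.16 after Benjamini-Hochberg adjustment over 8 ratio comparisons). These ratios were chosen after the values had been seen.

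Hspb1 (chr5:135887919-135889563, plus strand) encodes HSP27, a small heat shock protein that holds clients and binds the cytoskeleton. It passed the filter in AKR and in no other line. AKR had 3141, 2946 and 2829.6 normalised counts in the sgB2m libraries, against 1502, 1429 and 1376 in the sgNT libraries. The groups did not overlap, and Hspb1 rose 2.07-fold (log2 fold change 1.05 ± 0.057, adjusted p = 3.43e-07), the largest change of any tested member in any line. Elsewhere it was not tested: MC38 had 0 reads over the 3 sgB2m libraries and 9 over the 3 sgNT libraries, LLC1 had 7 reads over the 3 sgB2m libraries and 21 over the 3 sgNT libraries and Hepa1-6 had 17 reads over the 3 sgB2m libraries and 9 over the 3 sgNT libraries. The MC38 zero allows up to 3 reads per library, 0.0783 to 0.0901 reads per M. In reads per kilobase of exon per M reads (RPKM), AKR had 94.9 RPKM in sgB2m and 44.3 in sgNT.

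Hspd1 (chr1:55077835-55088243, minus strand) and its partner Hspe1 serve the mitochondrial matrix. Hspd1 fell in 3 lines and rose slightly in MC38. LLC1 had 19483, 19921 and 19124 normalised counts in the sgB2m libraries, against 29008, 28766 and 29220 in the sgNT libraries, a 1.49-fold fall (log2 fold change -0.57 ± 0.024, adjusted p = 2.43e-10). Hepa1-6 had 30791, 30008 and 31413 normalised counts in the sgB2m libraries, against 39148, 38778 and 38731 in the sgNT libraries (log2 fold change -0.34 ± 0.02, adjusted p = 2.65e-09). AKR had 21586, 20239.5 and 21021 normalised counts in the sgB2m libraries, against 26014, 26126 and 25389 in the sgNT libraries (log2 fold change -0.30 ± 0.036, adjusted p = 7.1e-05), a change of -0.20 with quantile normalisation. In these 3 lines no sgB2m library reached an sgNT library. In MC38 the change was small (24536 ± 771 normalised counts in sgB2m and 22382 ± 586 in sgNT; log2 fold change 0.13 ± 0.039, adjusted p = 0.0259), and it was lost without sgB2m replicate 2 (adjusted p = 0.122), sgB2m replicate 3 (0.0873) or sgNT replicate 2 (0.0929; 0.0151 to 0.136 over 14 alternatives).

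Hspe1 is no member, but it shares the promoter region printed above with Hspd1, and 112 bases of the 2 annotations overlap on opposite strands, so a count without strand would mix some of their reads. It fell in LLC1 (3699 ± 164 normalised counts in sgB2m and 5405 ± 216 in sgNT; log2 fold change -0.55 ± 0.042, adjusted p = 1.46e-07) and in Hepa1-6 (4066 ± 242 normalised counts in sgB2m and 5237 ± 178 in sgNT; log2 fold change -0.37 ± 0.044, adjusted p = 8.24e-06). In AKR, where Hspd1 fell, Hspe1 had 2673 ± 277 normalised counts in sgB2m and 2609 ± 158 in sgNT and did not pass (log2 fold change 0.032 ± 0.074, adjusted p = 0.763). The log2 ratio of Hspd1 to Hspe1 was 2.97 ± 0.104 in AKR sgB2m and 3.31 ± 0.074 in AKR sgNT, without overlap (exact permutation p = 0.1, the smallest possible). In MC38, LLC1 and Hepa1-6 that ratio differed by -0.015, -0.025 and 0.027 (sgB2m minus sgNT), with overlapping groups (exact permutation p = 1, 0.8 and 0.8).

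Hsf1 itself changed in 2 lines. It fell in LLC1 (869 ± 54.7 normalised counts in sgB2m and 1328 ± 5.67 in sgNT; log2 fold change -0.61 ± 0.062, adjusted p = 1.96e-06), 1.53-fold and without overlap. It rose in Hepa1-6, where the members fell (1024 ± 78.3 normalised counts in sgB2m and 837 ± 76.5 in sgNT; log2 fold change 0.29 ± 0.082, adjusted p = 0.0108), a call lost without sgB2m replicate 3 (0.0535) or sgNT replicate 1 (0.0525; 0.00441 to 0.0733 over 14 alternatives). In MC38 and AKR it did not pass (log2 fold change -0.04 ± 0.069, adjusted p = 0.704, and log2 fold change -0.079 ± 0.066, adjusted p = 0.369). Hsf2, which can form mixed trimers with HSF1, rose in AKR (1086 ± 39.8 normalised counts in sgB2m and 865 ± 25.3 in sgNT; log2 fold change 0.33 ± 0.062, adjusted p = 0.00143). It did not pass in MC38 (log2 fold change -0.13 ± 0.074, adjusted p = 0.215), LLC1 (log2 fold change -0.034 ± 0.061, adjusted p = 0.687) or Hepa1-6 (log2 fold change 0.042 ± 0.064, adjusted p = 0.653). HSF1 is controlled mainly at the protein level, so its transcript does not measure its activity.

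A model of all 24 libraries tested whether the change differed between lines. All 7 members tested in every line passed (limma interaction F test, adjusted p between 1.52e-12 for Hsp90aa1 and 8.14e-05 for Dnajb1). This is read against a background of 69.8% of 12674 genes passing the same test, so a difference between lines is common among genes in general. Hspa1a, Hspa1b and Hspb1 did not pass the filter in every line and were not in that test.

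Levels per length show where the members stand. In sgNT libraries Hsp90ab1 had the highest level of the members in each line, from 923 RPKM in Hepa1-6 to 1574 in LLC1. Hspa8 ranged from 311 RPKM in LLC1 to 528 in MC38. Hsph1, Dnajb1 and Bag3 lay far lower, between 9.3 and 34 RPKM, and Hspa1b reached 6.27 RPKM in MC38 and 0.0284 in Hepa1-6. These levels rest on each library's own total and separately processed tables, so differences between lines were not tested.

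The surrounding chaperone network was described with 62 further genes in 8 classes. Like the members, this list was chosen with earlier results of these data known. Its counts beside the shares of all genes are therefore a description and test no excess. In MC38, 29 of 61 tested fell and none rose, beside 15.8% and 15.9% of all genes. At an unadjusted p under 0.05, 1 rose and 31 fell, and voom gave 0 and 29. LLC1 had 12 higher and 29 lower of 58, and its 20.7% higher equalled the 20.7% over all genes, of which 21.8% were lower. AKR had 24 higher and 9 lower of 60, beside 21% and 21.9% of all genes. Hepa1-6 had 8 higher and 24 lower of 58, beside 18.6% and 19.2% of all genes. More of the list fell than rose in MC38, LLC1 and Hepa1-6, and more rose than fell in AKR. Not every class followed its line. In AKR, 4 of 8 mitochondrial chaperones and proteases fell and 2 rose. In LLC1, 4 of 8 tested J-domain co-chaperones rose and 2 fell, and 2 of 4 tested small heat shock proteins rose and 0 fell.

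The CCT chaperonin, the cytosolic ring that folds actin and tubulin, fell in 7 of 8 subunits in MC38 (15.8% of all genes fell) and 8 of 8 in LLC1 (21.8% of all genes), where Cct4 had 11234 ± 74.8 normalised counts in sgB2m and 16903 ± 494 in sgNT (log2 fold change -0.59 ± 0.028, adjusted p = 9.24e-10). In Hepa1-6, 5 subunits fell and 2 rose, beside 19.2% and 18.6% of all genes. In AKR 2 of 8 rose, none fell and 6 did not pass by limma (3 rose and 0 fell at an unadjusted p under 0.05, 2 and 0 by voom). Over all AKR genes 21% rose and 21.9% fell, so the 25% of subunits that rose lay near the background. The other small heat shock proteins rose in AKR for 4 of 5 tested (Hspb2, Hspb6, Hspb8 and Cryab), beside 21% of all genes. Hspb2 passed the filter there mainly through its sgB2m libraries, at 19.8 ± 5.03 normalised counts in sgB2m and 4.85 ± 5.42 in sgNT. Its place in that count therefore adds no support. Cryab, alphaB-crystallin, changed in all 4 lines: AKR had 645 ± 40.8 normalised counts in sgB2m and 184 ± 31.4 in sgNT (log2 fold change 1.82 ± 0.12, adjusted p = 1.41e-06) and LLC1 had 226 ± 6.48 normalised counts in sgB2m and 93.7 ± 13 in sgNT (log2 fold change 1.27 ± 0.15, adjusted p = 9.51e-06). MC38 went the other way (2351 ± 171 normalised counts in sgB2m and 4268 ± 183 in sgNT; log2 fold change -0.86 ± 0.064, adjusted p = 8.85e-06), as did Hepa1-6 (log2 fold change -0.45 ± 0.17, adjusted p = 0.0431). Hspb2 in AKR rested on 60 reads over the 3 sgB2m libraries and 15 over the 3 sgNT libraries (log2 fold change 2.41 ± 0.81, adjusted p = 0.0324), and its call was lost without sgB2m replicate 2 or 3 or sgNT replicate 1 (log2 fold change 1.44 without that one, adjusted p = 0.0596; 0.00775 to 0.0955 over 13 alternatives).

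Among J-domain genes, Dnaja4 fell in MC38 (41.2 ± 3.24 normalised counts in sgB2m and 145 ± 16.5 in sgNT; log2 fold change -1.78 ± 0.21, adjusted p = 0.000175), the largest fall of the list there, and Dnajb5 rose in AKR (340.4 ± 9.85 normalised counts in sgB2m and 159 ± 20.7 in sgNT; log2 fold change 1.10 ± 0.12, adjusted p = 4.22e-05). Hspa2 rose in LLC1 (138 ± 15.1 normalised counts in sgB2m and 87.4 ± 6.58 in sgNT; log2 fold change 0.65 ± 0.17, adjusted p = 0.00556). Among mitochondrial chaperones, Hspa9, the matrix HSP70, fell in LLC1, AKR and MC38. LLC1 had 29838 ± 572 normalised counts in sgB2m and 45419.7 ± 803 in sgNT (log2 fold change -0.61 ± 0.023, adjusted p = 8.57e-11), and AKR had 39694 ± 836 normalised counts in sgB2m and 63584 ± 843 in sgNT (log2 fold change -0.68 ± 0.033, adjusted p = 1.65e-07). In MC38, where Hspd1 rose, Hspa9 fell (log2 fold change -0.27 ± 0.035, adjusted p = 0.000347), and in Hepa1-6, where Hspd1 fell, it did not pass (log2 fold change 0.042 ± 0.019, adjusted p = 0.101). No listed gene changed by 0.58 or more in Hepa1-6.

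**Figure D4:**
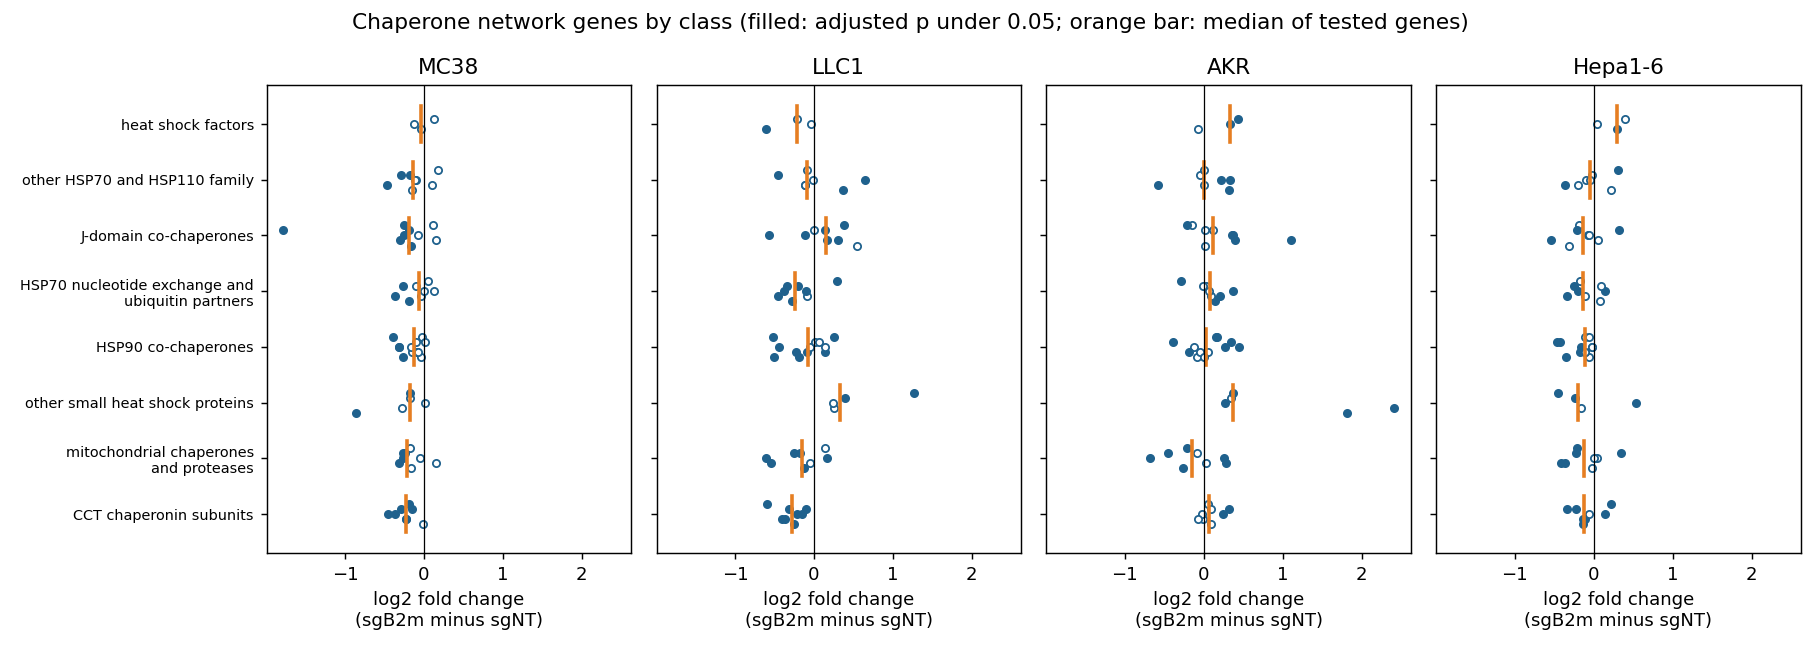
Log2 fold change of the 62 chaperone network genes by class, sgB2m minus sgNT, in each line; filled points have a limma adjusted p under 0.05 and the orange bar is the median of the tested genes of a class. In MC38 no filled point lies right of 0, and in AKR 24 do.

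Genes whose changes lay nearest to the mean change of the HSP70 partners were also sought. The mean log2 fold changes of Dnajb1, Hsph1 and Bag3, HSP70 partners tested in every line, were -0.43 in Hepa1-6, -0.30 in MC38, -0.038 in LLC1 and 0.16 in AKR. In LLC1 this mean hides opposite changes, -0.33 for Hsph1 and 0.25 for Bag3, with -0.032 for Dnajb1. AKR values were 0.35 for Hsph1, 0.13 for Bag3 and 0.019 for Dnajb1. Of 12674 genes, the 5 nearest by root mean square difference over the 4 lines were Cherp (0.042), Polr2k (0.044), Mrpl42 (0.045), Apex1 (0.053) and Psmc4 (0.053). With 4 values per gene and so many genes, near matches will be found by number alone, and nothing is said of shared control.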

How the data were processed

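Values were deposited as log2 normalised counts, with a table for each line. The authors worked on build mm10 with DESeq2, STAR and FastQC 0.11.5, per the submitters' processing notes; the gene counter, annotation and strand setting are not given in the sources used here. Values were returned to the linear scale with a pseudocount of 1 removed. In every library 100% of the low counts checked were then whole reads within 0.05 reads. Higher counts were not in that check. On this basis the authors' size factors were undone and depths (25 to 49.7 M reads) recovered.

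Each line was fitted alone in R 4.3.3 with limma 3.58.1 (intensity trend, no covariate), and the interaction on all 24 libraries. Filters, thresholds and naming stand in the results; network genes were named if called and changed by 0.58 or more on the log2 scale, at most 6 per line. RPKM used recovered reads and GENCODE exon lengths. Promoters were read with Python 3.11.15 and Biopython 1.88. The fit was also run on simulated counts. These were given the same spread setting for every gene, so that run does not measure error rates in these libraries. Members and lists were chosen with earlier results of these data known, and the ratios after their values were seen. Replicates differed by more than sampling noise, so none was a duplicate. Alternatives changed the filter, pseudocount, scaling, trend, replicate block and replicates, or used voom.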

Additional observations from a re-analysis of the deposited data

Results flagged for a closer look

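The change with the B2m guide differed between the 4 lines for each of the 7 members tested in all of them, by limma's interaction F test over 24 libraries. The Benjamini-Hochberg adjusted p was 4.26e-10 for Hspa8, 2.99e-10 for Hsph1, 8.14e-05 for Dnajb1 and 9.82e-06 for Bag3. For the other members it was 1.52e-12 for Hsp90aa1, 2.65e-05 for Hsp90ab1 and 1.48e-11 for Hspd1. Hspa8, Hsph1, Hsp90aa1, Hspd1 and Bag3 each passed in both directions across the lines, and 69.8% of all genes passed the same test. B2m differed between lines as well (1.13e-05), being lower in each.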

How the results depend on the processing

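Over 34 tested combinations of member and line, 474 alternative values were computed: 439 stayed on their side of the threshold without a change of sign, 18 lost the call, 10 gained it and 7 changed sign, none of them called. A change set to 0 was not taken as a change of sign. Hsp90aa1 changed sign in MC38 with quantile normalisation (-0.043) and in LLC1 with total-read scaling (0.0095). With single replicates left out, the log2 fold change ran from -0.043 to 0.0012 for Hsp90aa1 in LLC1, -0.022 to 0.36 for Hspa1b in LLC1, -0.084 to 0.24 for the summed pair in LLC1 and -0.070 to 0.064 for Dnajb1 in AKR. The log2 ratio of Hspd1 to Hspe1 then differed by -0.060 to 0.074 in MC38, -0.054 to 0.026 in LLC1 and -0.030 to 0.089 in Hepa1-6. MC38 held 15 of the 18 lost calls. There the number of members called, 5, moved to 3 with no filter and 2 with no intensity trend, and ranged from 2 to 7 with single replicates left out. The network count in MC38, 29, moved to 19 with no intensity trend. Genes called over the whole MC38 table moved as well, from 5251 to 3651 with no intensity trend. They reached 6082 without sgNT replicate 1, so these moves were not particular to the members or the network list. Of the members with a promoter, 6 matched the 8-base motif and 2 matched 3 alternating units, beside 15.1% and 0.603% of all promoters. A member with 2 promoters was counted if either matched, so the members' counts and these shares are not on the same footing. Quantile normalisation set the change of Hsp90ab1 to 0 in MC38, LLC1, AKR and Hepa1-6, since it holds the same rank in every library of a line. Whether replicate numbers pair the libraries was not settled. Correlations of same-numbered deviations were weak, from -0.028 to 0.051, and 13 of 24 libraries correlated best with their own number. By line these were 6 of 6 in LLC1, 3 of 6 in Hepa1-6, and 2 of 6 in both MC38 and AKR. With the replicate block, the members called were 7 in Hepa1-6, 6 in AKR, 6 in MC38 and 5 in LLC1, network genes called were 30, 32, 28 and 39 in the same order, genes called were 5589, 6494, 5120 and 6306, and 8634 genes and 7 members differed between lines. Hspa1b in MC38 gained its call with the block (adjusted p = 0.0435; 0.0435 to 0.325 over 14 alternatives), as did the summed pair (log2 fold change -0.31, adjusted p = 0.0274; 0.0248 to 0.334 over 14 alternatives). The causes were not tested. Low reads limit Hspa1a and Hspa1b in LLC1 and Hepa1-6, and Hspb1 in every line but AKR.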
